A study of Mus musculus with 12 samples.

Results

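The effect of pargyline on the heart of mice without diabetes was read from the comparison of 3 arrays labelled control with pargyline (C + P) with 3 arrays labelled control (C), 6 of the 12 arrays of the series, chosen by their labels. All mice were male C57BL6/J, 5 months old when sampled, and each array held the RNA of the heart muscle of 1 mouse. Mice of the C + P group received pargyline at 50 mg/kg per day for 12 weeks, and C mice received vehicle. Neither group was given streptozotocin. The other 6 arrays came from mice made diabetic with streptozotocin (50 mg/kg per day, 5 days), which kills the beta cells of the pancreas, without (D) or with (D + P) pargyline at the same dose. They entered the model that estimated the spread, and D + P against D served as the same drug contrast in diabetic hearts.

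Pargyline irreversibly inhibits the monoamine oxidases MAO-A and MAO-B, flavoenzymes of the outer mitochondrial membrane that break down noradrenaline, dopamine and serotonin and release hydrogen peroxide and aldehydes. The inhibitor acts on the enzymes, so transcript levels are a downstream readout. Immediate early genes are transcribed within minutes of a stimulus such as a growth factor, stretch, ischaemia or catecholamines, without new protein synthesis. They encode transcription factors of the AP-1, Egr and Nr4a families and the regulators that switch the response off, and their transcripts are short-lived.

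All C arrays lay on 1 slide read in 1 scan, together with the D arrays, and all C + P arrays on another slide and scan, together with the D + P arrays. Slide and pargyline therefore cannot be told apart in C + P against C. The hour and manner of tissue collection are not given in the sources used here, for either group. Between 28472 and 29231 of 59305 spots were well above background on the C arrays and between 25164 and 28272 on the C + P arrays, and 0 spots were saturated. C + P replicate 1 stood apart. It had the fewest spots well above background of the 6, repeated spots that varied by a median of 16.0% (coefficient of variation), and Pearson correlations over probes of 0.969 and 0.960 with the other C + P arrays, which correlated at 0.986 with each other. For C replicate 1 this variation was 10.1%, and for the other 4 arrays it lay between 3.89% and 4.42%. The median SD of a probe between arrays was 0.165 in C and 0.275 in C + P on the log2 scale. Markers of cardiomyocytes were bright on all arrays, with a mean log2 level in C of 17.3 for Myh6, the alpha myosin heavy chain, and of 16.9 for Tnnt2, cardiac troponin T.

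Immediate early genes led the comparison. Of 30857 probes tested, 10 passed in C + P against C (limma, Benjamini-Hochberg adjusted p under 0.05), which is 0.0324% of all probes. Of these 9 were higher in C + P (0.0292%) and 1 was lower (0.00324%). Of the 9 genes that rose, 7 were transcription factors or early response genes: Fos, Fosb, Egr1, Egr2, Nr4a1, Ier2 and Apold1. The other two were Cxcl1, a chemokine that attracts neutrophils, and Nmrk2, a kinase that makes a precursor of NAD. The median log2 change over all tested probes was -0.01. At an unadjusted p under 0.05, 583 probes (1.89%) were higher and 806 (2.61%) lower. The C + P arrays lay above every C array for 2185 probes (7.08%) and below every C array for 2616 (8.48%). Fitted with the 6 arrays of C and C + P alone, with 2317 probes at an unadjusted p under 0.05, 0 probes passed, and the lowest adjusted p of the genes above was 0.0571, for Egr1 and Ier2. Leaving out any 1 of the C or C + P arrays gave 4 to 5 probes. With 3 arrays a group, 0.1 is the smallest two-sided p that an exact permutation test allows.

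**Figure D1:**
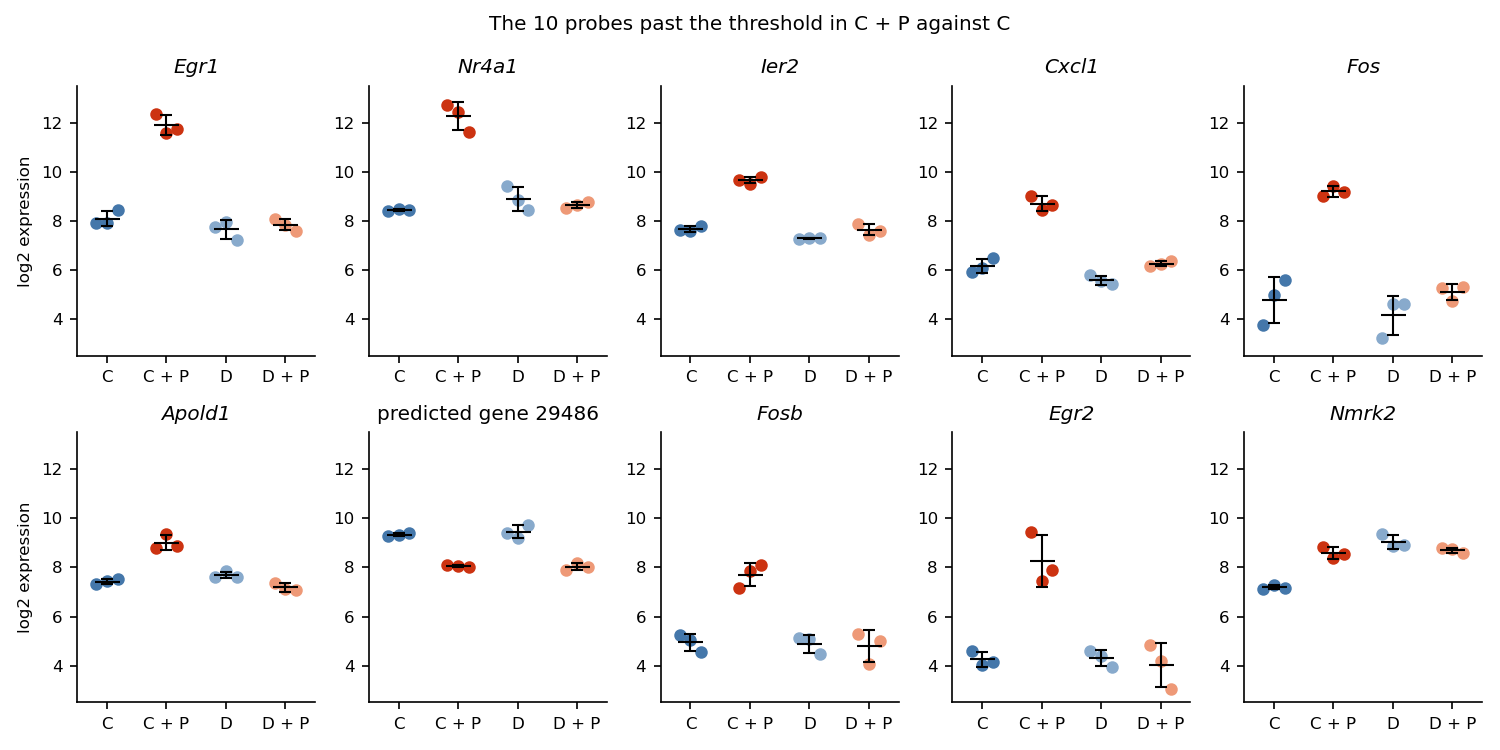
Log2 expression of the 10 probes that passed in C + P against C, on each of the 12 arrays (points), with the mean and SD of each group of 3 (bars). In the 9 panels of genes that rose, the 3 C + P arrays lie above the 3 C arrays, whereas the predicted gene 29486 panel shows C + P and D + P near 8 and C and D above 9.

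The AP-1 factors Fos and Fosb bind DNA as dimers with Jun proteins. Fos measured 3.76, 4.99 and 5.60 on the C arrays and 8.999, 9.44 and 9.17 on the C + P arrays, as log2 normalised intensity. Every C + P array was thus well above every C array, and the C arrays differed among themselves by more than the C + P arrays did. The log2 change was 4.42 ± 0.47 (SE, adjusted p = 0.0114), but Fos was well above background on 1 of the 3 C arrays, so its level there is poorly known. Fosb measured 5.24, 5.04 and 4.57 in C and 7.17, 7.85 and 8.09 in C + P, with a log2 change of 2.75 ± 0.36 (adjusted p = 0.0416). The groups did not overlap. The Fos probe lies at chr12:86818118-86818177 and the Fosb probe at chr7:19888168-19888227 in mm9, the build of the files, which give no exon or UTR for a probe. Leaving out C replicate 2 or any 1 C + P array took Fos past an adjusted p of 0.05, to between 0.0564 and 0.0766. Fosb passed in 2 of the 12 fits that each left out 1 array, with adjusted p from 0.0186 to 0.300, and failed without any 1 of the C, C + P or D arrays or without D + P replicate 3.

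Egr1 and Egr2 are zinc-finger factors of the early growth response family. Egr1 measured 7.90, 7.92 and 8.44 in C and 12.38, 11.57 and 11.76 in C + P. Its log2 change of 3.82 ± 0.27 corresponded to a 14.1-fold higher level (adjusted p = 0.000805), and the lowest C + P array exceeded the highest C array by far more than the SD of either group, 0.31 in C and 0.42 in C + P. Egr2 measured 4.60, 4.02 and 4.16 in C, none of them well above background, and 9.44, 7.47 and 7.88 in C + P. Since the C level is only a bound, the change is given as at least 10.9-fold higher in C + P (adjusted p = 0.0416), a bound that holds for the signal as the scanner software corrected it. C + P replicate 1 was the highest array for both genes. Egr2 passed in 2 of the 12 fits that left out 1 array, with adjusted p from 0.0365 to 0.300, and failed without any 1 of the C, C + P or D arrays or without D + P replicate 2. The Egr2 probe lies at chr10:67004758-67004817 (mm9).

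Nr4a1, an orphan nuclear receptor also called Nur77, measured 8.41, 8.50 and 8.45 in C and 12.73, 12.43 and 11.63 in C + P. The C arrays agreed within 0.04 (SD) and the C + P arrays within 0.57. The log2 change was 3.81 ± 0.29, or 14.1-fold (adjusted p = 0.000805, probe at chr15:101105071-101105130 in mm9). Ier2, a small nuclear early response protein, measured 7.64, 7.59 and 7.79 in C and 9.67, 9.53 and 9.77 in C + P, a 3.96-fold difference (log2 change 1.98 ± 0.15, adjusted p = 0.000805, chr8:87185211-87185245). The second probe of Ier2 did not rise well above background on any array of either group and had a log2 change of -0.01. Apold1, an early response gene of the vascular endothelium, measured 7.31, 7.44 and 7.53 in C and 8.78, 9.36 and 8.88 in C + P (log2 change 1.58 ± 0.18, adjusted p = 0.0197). The Apold1 groups did not overlap, but the adjusted p rose to between 0.0758 and 0.184 without any 1 C array or without C + P replicate 2 or 3. Egr1, Nr4a1, Ier2 and Cxcl1 passed in 12 of 12 fits that left out 1 array, with a highest adjusted p of 0.0119.

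Cxcl1 was the chemokine that rose. It measured 5.90, 6.10 and 6.49 in C and 9.04, 8.46 and 8.63 in C + P, and both groups had the same SD of 0.30. The log2 change was 2.55 ± 0.20, or 5.84-fold (adjusted p = 0.000853, chr5:91322080-91322139 in mm9). Nmrk2, nicotinamide riboside kinase 2, is a muscle enzyme that phosphorylates the vitamin nicotinamide riboside on its way to NAD. It measured 7.13, 7.29 and 7.18 in C and 8.85, 8.37 and 8.55 in C + P (log2 change 1.39 ± 0.18, adjusted p = 0.0416, chr10:80662033-80662092). The untreated diabetic hearts had a mean Nmrk2 level of 9.04 and the treated ones 8.70, so C was the group that stood below the other three. Nmrk2 passed in 1 of the 12 fits that left out 1 array (without D replicate 1), with adjusted p up to 0.350. Neutrophil markers were read on the same arrays. S100a9 measured 7.21, 8.50 and 7.00 in C and 10.46, 9.35 and 8.78 in C + P, and S100a8 measured 4.64, 6.26 and 5.27 in C and 8.62, 6.98 and 6.82 in C + P, neither past the threshold (adjusted p = 0.518 and 1.00). Of the 4 neutrophil markers tested 3 were higher, Ly6g at 0.28 with overlapping arrays, with a summed linear level of 40470 to 44269 in C and 33427 to 49041 in C + P, which is mostly Csf3r at a log2 change of -0.00. Their part in the Cxcl1 result was not tested. In whole heart RNA, more cells of a type and more RNA per cell cannot be told apart.

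Of these calls, those of Egr1, Nr4a1, Ier2 and Cxcl1 held under every scaling, background correction, filter and block tried with all 12 arrays, and the others did not. With the normexp background correction, which raises dim values, the log2 change was 2.66 for Fos, 1.38 for Fosb and 1.81 for Cxcl1, and Egr2 did not pass (adjusted p = 0.108), nor did the probe of predicted gene 29486 (0.239), which is described further on. With 75th percentile scaling Egr2 (0.0525), Nmrk2 (0.0531) and that probe (0.0525) failed, and with cyclic loess Egr2 (0.0665) and Nmrk2 (0.0505). Without a filter on dim probes Egr2 (0.0750), Fosb (0.0698), Nmrk2 (0.0692) and the predicted gene (0.0502) failed. When the column on the slide was a block, Fos (0.0856), Apold1 (0.366), Fosb (0.570), Nmrk2 (0.339) and the predicted gene (0.452) failed.

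To show what sequence lies ahead of these genes, the 250 bases before the start site were searched on both strands for a pair of motifs that are common in front of immediate early genes, the cAMP response element and the CArG box. The table of RefSeq promoters (GRCm38.p6) held 7 of the 9 genes that rose, and not Egr1 or Ier2. TGACG, the core of the cAMP response element, was found in 6 of the 7 (85.7%), beside 19.8% of all 27025 genes in the table, and the exception was Nmrk2. The full palindrome TGACGTCA, which contains the core, was in 0 of the 7, beside 1.77% of all genes. The CArG box was in 1 of the 7, Egr2, beside 1.62% of all genes. Among the tested members of the immediate early lists described further on, of which 41 of 54 were in the table, 24 held the core (58.5%), 5 the palindrome (12.2%; Btg2, Dusp1, Errfi1, Maff and Nfkbid) and 4 the CArG box (9.76%; Dusp5, Egr2, Srf and Zfp36). These counts describe letters in a window and no binding. Sequence further upstream was not searched, so a motif absent from the window may lie outside it. The genes with 1 start site in the table and at least 1 match are printed 5′ to 3′ in the direction of transcription, with TGACG, or CGTCA where the match is on the other strand, in capitals. The windows are chr12:85473640-85473889 (plus strand), chr7:19310046-19310295 (minus strand), chr15:101266596-101266845 (plus), chr6:134981751-134982000 (plus) and chr5:90890995-90891244 (plus), all in GRCm38.p6.
Fos promoter: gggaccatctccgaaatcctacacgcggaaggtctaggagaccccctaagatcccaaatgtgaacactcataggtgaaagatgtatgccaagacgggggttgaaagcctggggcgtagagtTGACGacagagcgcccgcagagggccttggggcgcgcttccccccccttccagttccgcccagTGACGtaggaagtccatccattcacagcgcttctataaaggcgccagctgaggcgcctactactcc
Fosb promoter: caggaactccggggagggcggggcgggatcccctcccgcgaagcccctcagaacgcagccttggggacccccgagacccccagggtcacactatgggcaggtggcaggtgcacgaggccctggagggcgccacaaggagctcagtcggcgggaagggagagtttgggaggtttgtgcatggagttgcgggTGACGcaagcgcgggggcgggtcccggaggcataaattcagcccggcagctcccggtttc
Nr4a1 promoter: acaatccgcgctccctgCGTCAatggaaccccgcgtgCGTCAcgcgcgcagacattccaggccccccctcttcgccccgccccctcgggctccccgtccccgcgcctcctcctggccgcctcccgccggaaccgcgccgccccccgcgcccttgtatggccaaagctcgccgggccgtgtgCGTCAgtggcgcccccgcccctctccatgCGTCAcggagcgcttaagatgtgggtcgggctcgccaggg
Apold1 promoter: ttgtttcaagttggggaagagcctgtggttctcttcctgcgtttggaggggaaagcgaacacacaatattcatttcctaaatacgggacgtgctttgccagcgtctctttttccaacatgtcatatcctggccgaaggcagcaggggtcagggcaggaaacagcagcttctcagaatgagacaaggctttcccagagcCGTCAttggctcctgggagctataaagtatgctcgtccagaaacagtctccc
Cxcl1 promoter: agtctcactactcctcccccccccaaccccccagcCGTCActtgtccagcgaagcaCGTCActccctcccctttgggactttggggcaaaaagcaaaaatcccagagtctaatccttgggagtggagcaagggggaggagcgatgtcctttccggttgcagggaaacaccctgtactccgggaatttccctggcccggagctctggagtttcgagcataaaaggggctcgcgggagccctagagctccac
Nr4a1 held 4 matches in 250 bases, Fos and Cxcl1 2 each, and Fosb and Apold1 1 each.

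Next, the genes that rose were followed in the diabetic hearts, where the same drug contrast lay on the same pair of slides. Egr1 measured 7.77, 7.98 and 7.22 in D and 8.07, 7.85 and 7.61 in D + P, a log2 change of 0.19 ± 0.27. Nr4a1 measured 9.42, 8.85 and 8.45 in D and 8.52, 8.64 and 8.79 in D + P, a change of -0.26 ± 0.29. The arrays of D and D + P overlapped for both genes. An offset between the slides that is the same for the arrays of either slide drops out when 1 drug contrast is subtracted from the other. All C and C + P arrays lay in row 1 of their slides and all D and D + P arrays in row 2. A slide offset that differs by row therefore does not drop out, and its part was not tested. The difference between the drug contrasts passed for 2 probes (0.00648% of all tested, limma). These were Egr1 at 3.63 ± 0.38 and Nr4a1 at 4.07 ± 0.42, both with an adjusted p of 0.0258. The other genes that rose had differences of 1.64 for Ier2 (adjusted p = 0.107), 1.87 for Cxcl1 (0.274), 2.08 for Apold1 (0.0758) and 1.74 for Nmrk2 (0.254), which did not pass. Fos, Fosb and Egr2 were well above background on 0 of the 6 diabetic arrays, so the size of their differences is not known (adjusted p = 0.445, 0.315 and 0.315). The Egr1 difference passed in 1 of 12 fits that left out 1 array (without D replicate 3) and the Nr4a1 difference in 2 (without D replicate 3 or C + P replicate 3), and otherwise the adjusted p lay between 0.0546 and 0.154. When the column of an array on its slide was a block, the difference passed for 0 probes, with 1499 at an unadjusted p under 0.05 (adjusted p = 0.207 for Egr1 and 0.0606 for Nr4a1). For D + P and D themselves 0 probes passed (limma), and 4127 had an unadjusted p under 0.05. Over the 30857 probes both drug contrasts, which share no array but share the slide pair, correlated at a Pearson r of 0.05.

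**Figure D2:**
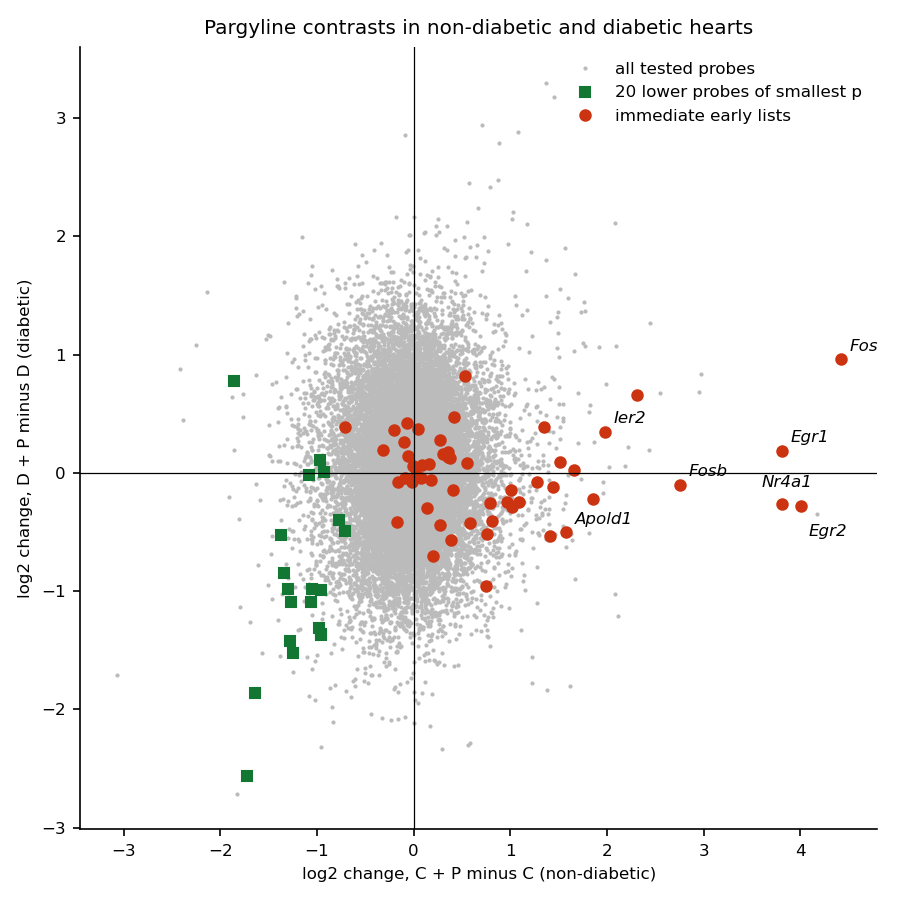
Log2 change of each tested probe with pargyline in non-diabetic hearts (horizontal axis) and in diabetic hearts (vertical axis). The red points of the immediate early lists spread to the right near 0 on the vertical axis (Egr1 at 3.82 and 0.19). Of the 20 green squares 17 lie below 0 on both axes. The squares are the lower probes of smallest p among those with non-overlapping groups and well above background on all C arrays.

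The probes that were lower showed another pattern. The probe that fell is annotated as predicted gene 29486, has no gene symbol in the files and lies at chr1:138404203-138404262 (mm9). It measured 9.27, 9.34 and 9.39 in C and 8.10, 8.06 and 8.01 in C + P, a log2 change of -1.28 ± 0.16 (adjusted p = 0.0416). In diabetic hearts it measured 9.39, 9.22 and 9.75 in D and 7.88, 8.18 and 8.02 in D + P, a change of -1.43, and the difference between the contrasts was 0.15 (adjusted p = 0.890). The probe thus divided the 12 arrays by slide and by drug alike. It passed in 3 of the 12 fits that left out 1 array, with adjusted p from 0.0236 to 0.300, and failed without any 1 of the C or C + P arrays, D replicate 1, or D + P replicate 2 or 3. The next sets of 20 were taken from probes with non-overlapping groups, well above background on every array of the brighter group. Of the 20 lower ones with the smallest p, 17 were also lower in D + P against D. Of these 15 had an unadjusted p under 0.05 there, beside 6.83% of all tested probes. The medians of the 20 were -1.07 in non-diabetic and -0.98 in diabetic hearts. Of the 20 higher ones with the smallest p, 11 were higher in D + P against D. Of these 3 had an unadjusted p under 0.05 there, beside 6.55% of all tested probes. The medians of the 20 were 1.78 and 0.07. All 20 of the higher probes had a gene symbol, and 8 of the 20 lower probes did, beside 26215 of all 30857 tested probes. The lower 20 held 10 predicted genes, 1 ribosomal protein pseudogene and 1 lincRNA. Over all tested probes these classes held 1655, 84 and 1969 probes. Of the 806 lower probes, 252 (31.3%) were also lower in diabetic hearts at an unadjusted p under 0.05, beside 6.83% of all tested probes, and of the 583 higher probes 41 (7.03%) were also higher, beside 6.55%. Both contrasts run across the same pair of slides, and the part of the slide in these counts was not tested.

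By class, 220 of 1655 probes of predicted genes (13.3%) lay below every C array on all C + P arrays, beside 8.48% of all probes, with a median log2 change of -0.05. Of 84 ribosomal protein pseudogene probes 13 did so (15.5%, median -0.03), of 1969 lincRNA probes 203 (10.3%, median -0.04), and of 173 probes of named cytosolic ribosomal proteins 10 (5.78%, median 0.00). Named genes among the lower probes did not pass. Gm4956, a predicted gene with a non-coding transcript, measured 7.62, 7.61 and 7.50 in C and 6.61, 6.52 and 6.81 in C + P (log2 change -0.93, adjusted p = 0.115) and had a log2 change of 0.01 in diabetic hearts. Gpr75, a G protein-coupled receptor, measured 5.64, 5.86 and 6.06 in C and was well above background on 0 of 3 C + P arrays, so it was at least 1.51-fold lower there (adjusted p = 0.189). Ly6f, of the Ly6 family of membrane-anchored antigens, differed by -1.05 in non-diabetic and -0.98 in diabetic hearts. Dpy19l3, a mannosyltransferase of the endoplasmic reticulum, differed by -0.66 and -0.02. Gm16386 and Gm10428 had log2 changes of -0.77 and -0.94 (adjusted p = 0.306 and 0.453), and a second Gm16386 probe -0.42. Gm24474 had -0.97 on 1 probe (0.204) and 0.07 on a brighter one. Zfp708, a zinc finger gene, was lower on both its probes without passing, but on the one named by the rule (0.239) it was well above background on 1 of 3 C + P arrays, so its size is not known. The RIKEN gene 2610524H06Rik and Rdh13, a retinol dehydrogenase of mitochondria, were not well above background on any C + P array and were at least 2.10-fold and 1.28-fold lower there (adjusted p = 0.399 and 0.321). The other 3 probes of Rdh13 had log2 changes of -0.20, 0.26 and 0.27.

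Among genes that were higher without passing, some were relatives or partners of those that rose and others were of unrelated kinds. Junb, an AP-1 partner of Fos, measured 10.45, 10.46 and 10.48 in C and 12.96, 11.93 and 12.07 in C + P (log2 change 1.86 ± 0.31, adjusted p = 0.160). Nr4a2, a relative of Nr4a1, measured 5.60, 5.66 and 5.65 in C and 6.69, 7.99 and 7.20 in C + P (1.66 ± 0.28, 0.160). Btg2, an antiproliferative early gene, and Sik1, a kinase induced by cAMP, had log2 changes of 1.35 and 1.41 (both 0.160). None of these groups overlapped, as the rule that picked these genes required. All C + P arrays lay above every C array for 7.08% of all probes. Cldn5, a tight junction protein of endothelial cells, measured 9.34, 9.34 and 9.08 in C and 10.62, 11.03 and 10.34 in C + P (1.41 ± 0.20, 0.0736). Icam1, the adhesion molecule that binds leukocytes, measured 8.52, 8.37 and 8.49 in C and 9.71, 9.40 and 9.50 in C + P (1.07 ± 0.16, 0.109). Hey1, a target of Notch signalling, had a log2 change of 1.03 ± 0.17 (0.160). Of the endothelial identity markers 3 of 7 were higher, with a median of -0.03. That median ran from -0.10 to 0.10 when 1 array was left out, and the part of endothelial cells was not tested. Slc4a1, the anion exchanger of red cells, measured 5.35, 5.95 and 5.08 in C, with 1 of 3 arrays well above background, and 7.32, 6.68 and 7.57 in C + P (0.186), while the red cell list had a median of 0.03, and Hba-a1 and Hbb-bt had log2 changes of -0.03 and 0.03. Wt1, a factor of the epicardium, had changes of 1.47 and 0.84 on its 2 probes. Msln, a marker of mesothelium, measured 7.65, 6.62 and 7.39 in C and 7.87, 5.50 and 6.27 in C + P, so its groups overlapped. Of the 19 higher probes that the rule for named genes picked, C + P replicate 1 was the highest C + P array for 9, and each of the other C + P arrays for 5.

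The whole immediate early response was examined with 4 lists of 59 genes. Of these 54 were tested, and Fosl1, Egr3, Egr4, Nab1 and Rgs1 were not. The lists were chosen with earlier results of these data known, so their counts are a description. In all, 7 of 54 passed, all higher, beside 0.0292% of all tested probes, and 43 were higher and 11 lower, with a median log2 change of 0.41 in non-diabetic and -0.05 in diabetic hearts. All C + P arrays lay above every C array for 27 of the 54, beside 7.08% of all probes. Without C + P replicate 1 the median was 0.43.

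Within the AP-1 list all 8 tested members were higher and 2 passed, with a median of 1.43. Atf3, a stress-induced partner, measured 5.27, 5.36 and 5.42 in C and 8.93, 7.18 and 6.89 in C + P (log2 change 2.32 ± 0.79, adjusted p = 0.998). Fosl2 and Maff had changes of 1.01 each, and Jun of 0.53. Jund, which is constitutively expressed in many tissues, had 0.16. In the Egr and Nr4a list all 6 were higher and 3 passed, with a median of 2.74, or 1.51 with normexp. The corepressor Nab2, which restrains Egr proteins, measured 8.43, 8.44 and 8.40 in C and 9.16, 8.92 and 8.86 in C + P (0.56 ± 0.16, 0.851), and Nr4a3 had a change of 0.27.

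The list of Klf, Ier and Btg genes with other early targets had 12 of 16 higher, 2 passed (Ier2 and Apold1) and a median of 0.40. Ccn1, a matricellular protein, measured 9.40, 8.92 and 9.03 in C and 11.47, 10.33 and 10.10 in C + P (1.52 ± 0.34, adjusted p = 0.518). Klf2, Klf6 and Arc lay between -0.01 and 0.09. Btg1 had -0.10 on its brighter probe, while a second, dimmer one had mean levels of 6.19 in C and 4.42 in C + P, where it was well above background on 0 of 3 arrays. Among the feedback regulators 17 of 24 were higher, 0 passed (5 higher and 1 lower at an unadjusted p under 0.05, beside 1.89% and 2.61% of all probes) and the median was 0.23, or 0.10 without C replicate 3. Zfp36, which destabilises transcripts of cytokines and early genes, measured 8.05, 7.92 and 8.05 in C and 9.73, 9.21 and 8.91 in C + P (1.28 ± 0.25, 0.317). Errfi1, an inhibitor of the EGF receptor, had a change of 1.44 and Dusp1, a phosphatase that turns off MAP kinases, of 1.09 (adjusted p = 0.336 and 0.738). Dusp6, a phosphatase of the same family, had a change of 0.36, and Dusp2 and Dusp4 were near background on most arrays. Gadd45g, a stress sensor, was the exception among members with a small p, at 10.33, 10.47 and 10.55 in C and 10.08, 9.75 and 9.39 in C + P (-0.71 ± 0.19, 0.755).

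**Figure D3:**
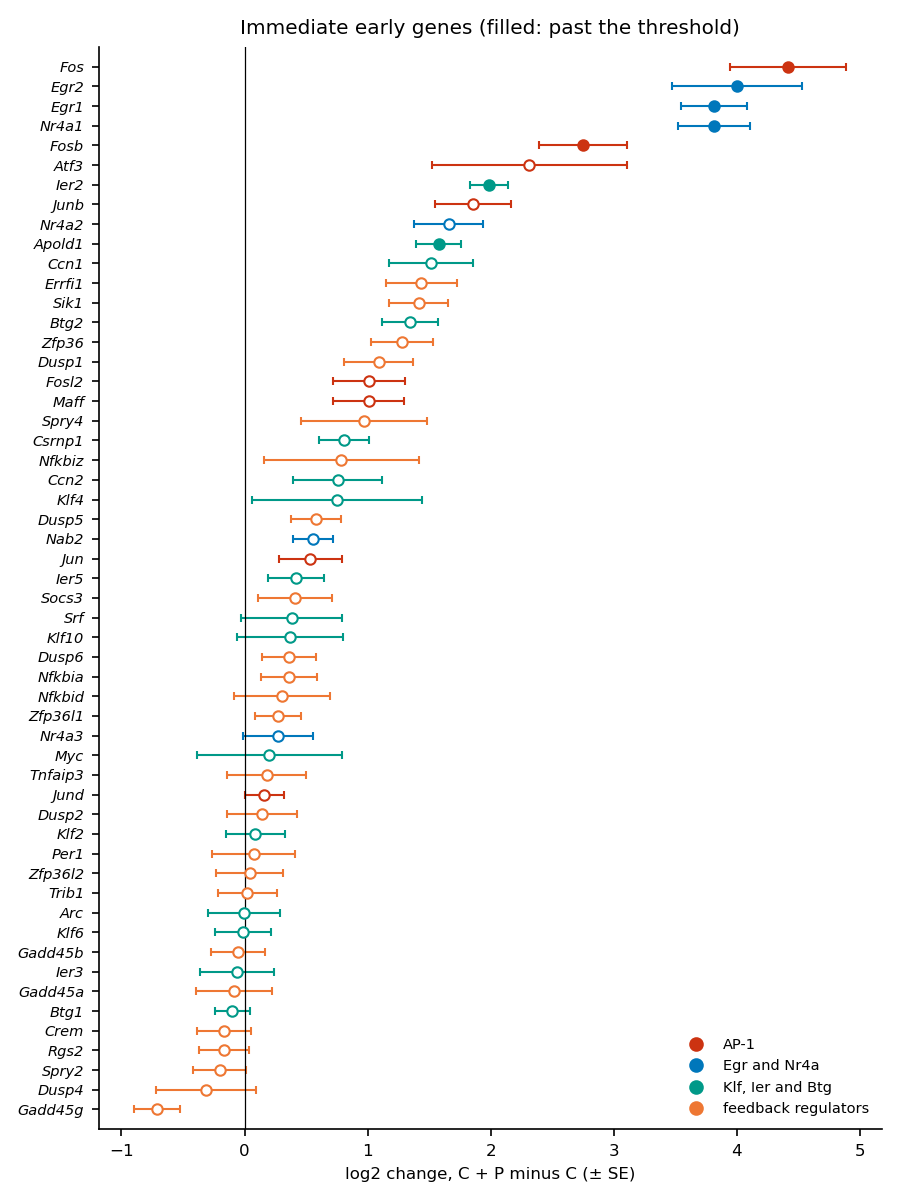
Log2 change of C + P against C with its standard error for the 54 tested immediate early genes, coloured by list, with filled circles for the 7 that passed. Fos (4.42), Egr2, Egr1 (3.82) and Nr4a1 (3.81) stand at the top, with no known order between Fos or Egr2 and the others since both were dim in C, and the lower part of the plot clusters around 0, with the lowest value for Gadd45g (-0.71).

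The targets of the drug were measured directly. Maob, which encodes MAO-B, measured 9.75, 9.67 and 9.82 in C and 9.01, 9.38 and 9.23 in C + P (log2 change -0.54 ± 0.18, adjusted p = 0.992). The groups did not overlap on this probe, but a second Maob probe had a change of -0.26 with overlapping arrays. Maoa measured 5.76, 6.07 and 5.39 in C and 5.84, 5.98 and 5.60 in C + P (0.07 ± 0.32). Of 20 tested genes of amine synthesis, transport and breakdown 0 passed (1 lower and 0 higher at an unadjusted p under 0.05, beside 2.61% and 1.89% of all probes). In all 7 of the 20 were higher, beside 48.1% of all probes, and 13 lower, with a median of -0.08, which was 0.01 without C + P replicate 3. Dbh, which makes noradrenaline, had a change of -0.37, and the adrenaline-forming Pnmt of -0.63. Among 24 adrenergic receptors and coupling genes 0 passed, 12 were higher and 12 lower, and the median was -0.00. At an unadjusted p under 0.05 4 were higher and 1 lower, beside 1.89% and 2.61% of all probes. The beta receptor Adrb1 had a change of -0.12. Grk5, a kinase that desensitises the receptors, measured 7.95, 8.03 and 7.66 in C and 8.64, 8.39 and 8.17 in C + P (0.52, adjusted p = 1.00), and Pde4b, which degrades cAMP, had a change of 0.67.

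Pathways of the heart muscle were then read from lists of their genes. Matrix genes were mostly higher, with 30 of 43 above the C mean, beside 48.1% of all probes, a median of 0.22 and 0 passed. At an unadjusted p under 0.05 8 were higher, beside 1.89% of all probes. Thbs1, thrombospondin 1, measured 6.03, 5.93 and 5.56 in C and 8.24, 7.71 and 7.88 in C + P (log2 change 2.11 ± 0.40, adjusted p = 0.274), and its change in diabetic hearts was -1.21. Adamts4, an aggrecan-cleaving protease, measured 3.53, 3.72 and 5.28 in C and 6.63, 6.12 and 5.22 in C + P, so its groups overlapped. Eln, elastin, and Timp1, an inhibitor of metalloproteinases, had changes of 1.01 and 0.50. The median of the matrix list was 0.13 without C + P replicate 1.

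Chemokines and cytokines had 10 of 17 higher, a median of 0.14 and 1 passed, Cxcl1. The median was 0.06 without C replicate 1 or C + P replicate 1 and 0.07 without C replicate 3. Ccl2, which attracts monocytes, measured 7.37, 7.26 and 7.39 in C and 9.37, 8.28 and 8.56 in C + P (1.40 ± 0.31, adjusted p = 0.494). Ccl7, its neighbour in the chemokine cluster, measured 6.96, 6.37 and 6.62 in C and 9.13, 7.49 and 7.69 in C + P (1.46 ± 0.44, 0.886). For both, C + P replicate 1 was the highest array. Macrophage markers had 5 of 6 higher, a median of 0.17 and a summed linear level of 16859 to 19348 in C, and of 27503 on C + P replicate 1 against 17820 and 17027 on the other two. Without that array the macrophage median was -0.10.

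Genes of cardiac load had 13 of 25 higher, a median of 0.02 and 0 passed (4 higher at an unadjusted p under 0.05, beside 1.89% of all probes). Nppb, the B-type natriuretic peptide made under wall stress, measured 13.35, 13.22 and 13.44 in C and 14.86, 14.17 and 13.80 in C + P (0.94 ± 0.36, adjusted p = 1.00). Nppa, the atrial natriuretic peptide, measured 13.41, 13.94 and 13.77 in C and 14.25, 14.28 and 14.73 in C + P (0.71 ± 0.28, 1.00). Gdf15, a stress cytokine, measured 6.43, 6.19 and 6.31 in C and 8.70, 6.98 and 7.19 in C + P (1.31 ± 0.45). The groups did not overlap for Nppb, Nppa or Gdf15. Atrial markers, a list that includes Nppa, had 4 of 5 higher and a median of 0.11 (-0.01 without C + P replicate 3), and of the others Myl4 and Dkk3 had changes of 0.07 and 0.11. Over the alternatives the atrial median ran from -0.03 to 0.69. Heat shock proteins and chaperones had 21 of 25 higher, a median of 0.13 and 0 passed (5 higher at an unadjusted p under 0.05, beside 1.89% of all probes), and without C + P replicate 1 18 were higher and the median was 0.08. Hsp90aa1, the inducible cytosolic Hsp90, had a change of 0.96, but C replicate 1 lay at 11.19 and the other C arrays at 12.41 and 12.35. Hsph1 and Dnaja1, co-chaperones of Hsp70, had changes of 0.62 and 0.49 (adjusted p = 0.990 and 0.917).

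Genes of circadian output and of fatty acid oxidation had more members lower than higher, with 0 past the threshold. Of 21 clock and output genes 15 were lower, with a median of -0.25 and 0 passed (4 lower at an unadjusted p under 0.05, beside 2.61% of all probes). Hlf, an output factor, measured 9.08, 9.20 and 8.96 in C and 7.14, 8.13 and 8.79 in C + P (-1.06 ± 0.34, adjusted p = 0.982), and Dbp, of the same family, 13.59, 13.57 and 13.71 in C and 12.37, 12.95 and 13.35 in C + P (-0.73 ± 0.30). C + P replicate 1 was the lowest array for both and for Nr1d2, a clock repressor, at 9.58 against 10.94 and 10.96. Without it the median of the list was -0.15, and without C + P replicate 3 it was -0.38. Of 35 genes of fatty acid oxidation 27 were lower, so 22.9% were higher, beside 48.1% of all probes, with a median of -0.18 and 0 passed (1 lower at an unadjusted p under 0.05, beside 2.61% of all probes), and without C + P replicate 3 the median was -0.08 with 24 lower. Eci2, an enoyl-CoA isomerase, had a change of -0.59, and Angptl4, an inhibitor of lipoprotein lipase, of -0.83 with overlapping arrays.

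The following lists held 0 genes that passed. Respiratory complex I (37 genes) had a median of 0.05, complexes II to V (42 genes) of -0.02, the mitochondrial ribosome (76 genes) of 0.07 and the inner membrane carriers and dynamics (34 genes) of -0.01. Leaving out 1 array of C or C + P gave 0.02 (without C + P replicate 1) to 0.08 (without C + P replicate 3) for complex I, and -0.02 to 0.11 without the same arrays for the mitochondrial ribosome, so no direction is given for either. With 75th percentile scaling complex I had 0.21 and complexes II to V 0.15. Among the inner membrane carriers and dynamics genes, Slc25a25, an ATP-Mg carrier, had a change of 0.96 (adjusted p = 0.818). Antioxidant enzymes (32 genes) had a median of -0.04, with Gclm, a subunit of the enzyme that starts glutathione synthesis, at -0.40 in both non-diabetic and diabetic hearts. Glycolysis (30 genes) had 0.01, sarcomere genes (26) -0.03 and calcium handling (27) -0.03. When 1 array was left out, these medians ran from -0.04 to 0.04, -0.08 to 0.001 and -0.08 to 0.01, in that order. The antioxidant median then ran from -0.06 to 0.02, so no direction is given for any of these lists. Further lists were mostly lower, and their medians came nearer to 0 without 1 array. Ion channels had 19 of 26 lower (median -0.14, and -0.06 without C + P replicate 3), and xenobiotic metabolism 10 of 13 (-0.16, and -0.09 without C + P replicate 3). Interferon and MHC genes had 20 of 31 lower (-0.16, and -0.05 without C replicate 1 or C + P replicate 1), with a median of 0.31 in diabetic hearts, and with the 7 arrays whose repeated spots varied by under 10%, a set chosen after seeing the data, the median turned to 0.04. In the insulin signalling list (40 genes, median -0.01), Irs2, an adaptor of the insulin receptor, measured 8.86, 9.24 and 9.19 in C and 10.05, 10.06 and 10.17 in C + P (1.00 ± 0.21, adjusted p = 0.438). Cdkn1a, the cell cycle inhibitor p21, measured 6.85, 6.69 and 6.58 in C and 8.71, 7.98 and 7.59 in C + P (1.39 ± 0.29, 0.367).

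Stress and inflammation lists held single members that were higher. Ppp1r15a, which restarts translation after stress, measured 9.71, 9.64 and 9.83 in C and 10.33, 10.40 and 10.08 in C + P (0.55 ± 0.14, adjusted p = 0.738), while the pseudokinase Trib3 of the same list had a change of -0.43, and the list of 29 genes a median of 0.03. In the hypoxia list (13 of 18 higher, median 0.11, and 0.06 without C + P replicate 1), the oxygen sensor Egln3 had a change of 0.54 in non-diabetic and -0.72 in diabetic hearts, with overlapping C and C + P arrays. Glucocorticoid response genes (20 tested, median -0.04) held 4 that were higher at an unadjusted p under 0.05 (beside 1.89% of all probes), Errfi1, Cdkn1a, Dusp1 and Sgk1, of which Errfi1 and Dusp1 also stand in the immediate early lists. Sgk1, a kinase that acts on ion transport, measured 10.77, 10.90 and 10.54 in C and 11.24, 11.48 and 11.22 in C + P. Apart from Nmrk2, the NAD list (21 tested, median -0.02) had a change of 0.21 for the NAD hydrolase Cd38 and of -0.25 for Nnt, the mitochondrial transhydrogenase. Interferon and MHC genes included Iigp1, an interferon-induced GTPase, at 11.76, 11.51 and 11.10 in C and 10.80, 11.02 and 10.82 in C + P (-0.57 ± 0.18, 0.952). Reactive oxygen producers (11 tested, 7 higher) had a median of 0.12, which was -0.01 without C + P replicate 1 and 0.01 without C replicate 2, and autophagy genes (36 tested, 18 higher) of -0.02. With the normexp correction several of the medians given above lay nearer to 0, at 0.10 for matrix, 0.05 for chemokines, 0.09 for feedback regulators, 0.06 for reactive oxygen producers, -0.10 for fatty acid oxidation, -0.04 for ion channels and -0.07 for xenobiotic metabolism. Of the single genes named without passing, those that were dim in C also had smaller log2 changes with that correction, of 0.92 for Nr4a2, 1.21 for Thbs1, 1.35 for Atf3, 0.98 for Slc4a1, 0.70 for Gdf15 and 1.04 for S100a8, and Gpr75, dim in C + P, had -0.43. With a stricter filter on dim probes the median of the reactive oxygen producers was -0.09.

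**Figure D4:**
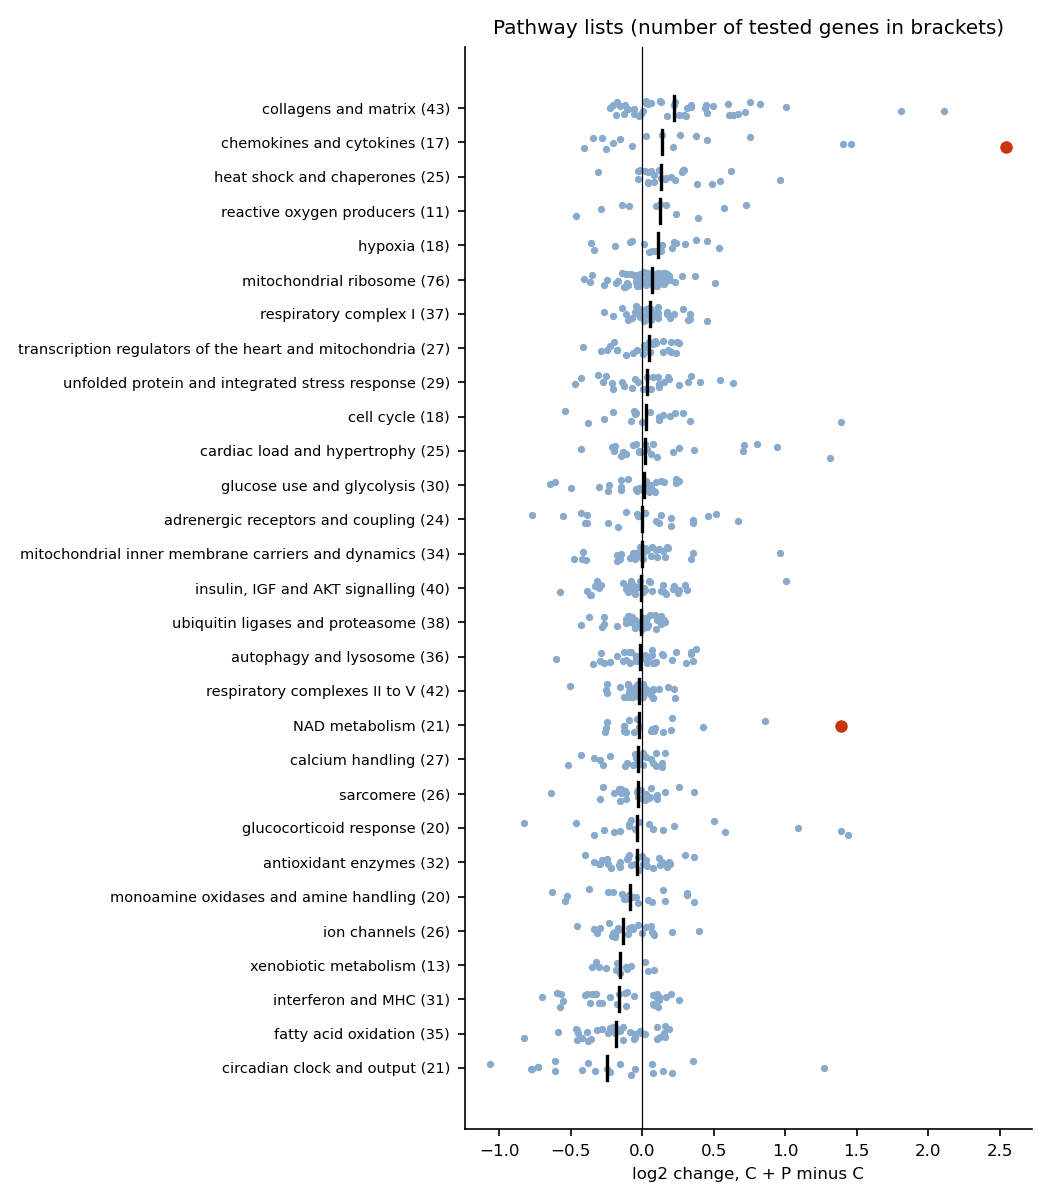
Log2 change of C + P against C for each tested gene (points) of the pathway lists, with the list median as a black bar and the number of genes in brackets. Red points passed (Cxcl1 at 2.55 and Nmrk2 at 1.39). Medians run from 0.22 for the matrix list to -0.25 for the circadian list.

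Markers of the cell types that a heart sample can hold were compared by array. Cardiomyocyte markers had a median log2 change of 0.02 (4 of 8 higher), with summed linear levels of 765153 to 782807 in C and 758603 to 895124 in C + P. Over the alternatives the cardiomyocyte median ran from -0.07 to 0.33. Fibroblast markers had -0.09 (2 of 6 higher), with -0.18 without C + P replicate 1 and -0.01 without C + P replicate 3. Smooth muscle and pericyte markers had -0.06 (3 of 7), with 0.05 and -0.18 without the same arrays and 0.07 with the normexp correction. Lymphocyte markers had -0.15 (2 of 5). Neuron and glia markers were lower for 6 of 6, with a median of -0.42, and their sum was 21693 to 24112 in C and 15466 to 23650 in C + P. That sum is mostly Snap25, at a log2 change of -0.29. Sox10, with the largest fall of the 6 (-0.80), was well above background on 0 of the C and C + P arrays. Platelet markers were higher for 4 of 4 (median 0.67), and their sum was 2720 to 3037 in C and 3039 to 3610 in C + P. The platelet sum is mostly Pf4, at a log2 change of 0.14. With the normexp correction the median was -0.26 for neuron and glia and 0.30 for platelets. The platelet median was 0.40 without C + P replicate 2, and that of the lymphocytes 0.04 without C replicate 2 and 0.06 without C + P replicate 2. None of these markers passed (Benjamini-Hochberg, limma), and beside each gene group above the part of such cells in the result was not tested. The only liver marker tested, Serpina1a, measured between 4.68 and 6.53 on the 6 arrays.

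**Figure D5:**
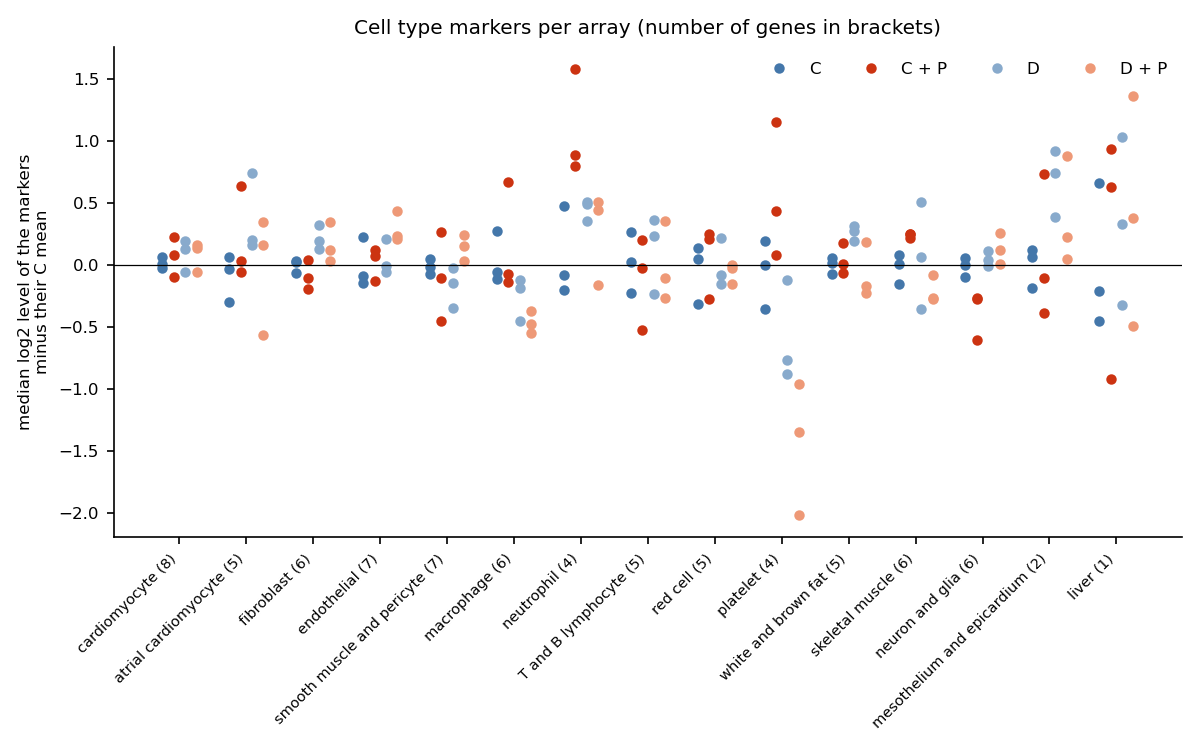
Median log2 level of the markers of each cell type on each array, relative to their mean over the 3 C arrays, with the number of markers in brackets. The C + P arrays (red) include the highest values for neutrophil and platelet markers and the lowest for neuron and glia markers, and the cardiomyocyte values of all 12 arrays lie close to 0.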

How the data were processed

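Total RNA (200 ng per sample) from heart muscle of 12 mice was labelled with Cy3 by the authors and hybridised to single-channel Agilent mouse arrays, 1 per mouse. The deposited scanner files give linear spot intensity, background-subtracted and detrended by Feature Extraction (version 12.0.0.7 per the file headers). A table of the series, with intensity quantile normalised by the authors before it was deposited (47757 spots), served as an alternative. Here the scanner intensity was log2 transformed and quantile normalised over the 12 arrays. Control spots were left out, outlier spots set to missing and repeated spots averaged. A probe was tested if, in every group, at least 50% of arrays flagged it as positive and significant (30857 of 56605), of which 26215 had a symbol and 21177 matched RefSeq names (GRCm38.p6). The model was limma's (version 3.58.1, R 4.3.3) with 1 mean per group, all 12 arrays and eBayes, two-sided, and adjusted p-values (Benjamini-Hochberg) run over all tested probes.

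Groups come from the labels, which do not tie replicate numbers to a shared batch or animal. A gene of a list is given by its brightest probe. Named genes are those past the threshold, the 10 higher and 10 lower of smallest p among genes that did not pass, had non-overlapping groups and were well above background on every array of the brighter group, Maoa and Maob, the immediate early members and 2 genes per list. One gene that the rule picked is not reported here. Other genes were named after their values were seen. The members and the lists were chosen with earlier results of these data known. A change given as at least N-fold is set against the lowest signal well above background. The number of arrays limits the precision. The fit was tested on simulated data. Alternatives were other scalings and background corrections, the series table, other filters on dim probes, fits of fewer arrays, array weights, an intensity trend, blocks, and the t-test of the study's methods. Further software was Python 3.11.15 (numpy 2.4.6, matplotlib 3.10.9, pandas 2.3.3) and the R package data.table (version 1.17.8).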

Additional observations from a re-analysis of the deposited data

Results flagged for a closer look

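For 2 genes the difference between arrays with and without pargyline was larger in non-diabetic than in diabetic hearts. The test was of that difference itself, a limma contrast over all 12 arrays. The log2 change of Egr1 was higher by 3.63 in non-diabetic hearts, and that of Nr4a1 by 4.07, each with an adjusted p of 0.0258. In non-diabetic hearts all 3 C + P arrays were above all 3 C arrays for both genes, and in diabetic hearts the arrays overlapped. The call rested on the full set of arrays: of 12 fits that each left out 1 array the Egr1 difference was lost in 11 and the Nr4a1 difference in 10, and 0 probes passed when the column of an array on its slide was a block (adjusted p = 0.207 for Egr1 and 0.0606 for Nr4a1). Both contrasts run between the same slides, so an offset common to the arrays of a slide drops out of these differences. The non-diabetic arrays lay in row 1 of the slides and the diabetic ones in row 2, so a slide offset that differs by row does not drop out. The hour and manner of tissue collection are not given. The part of row and collection in these differences was not tested.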

How the results depend on the processing

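In C + P against C 10 probes passed. Counts were 0 with the 6 arrays of C and C + P alone, 219 with array weights (106 higher, 113 lower, all 10 among them), 5 with the slide column as a block, 0 with the 7 arrays whose repeated spots varied by under 10% (added after seeing the data; 2070 at an unadjusted p under 0.05; 2 arrays a group, but 1 in D + P, assumed to vary like the others), and 0 by the methods' t-test after Bonferroni or Benjamini-Hochberg adjustment (2415 at an unadjusted p under 0.05). Leaving out each array gave 4 to 12. With the replicate block 6 passed (lost were Apold1 at 0.0756, Fosb at 0.138, Nmrk2 at 0.103 and the predicted gene at 0.112, as limma's adjusted p), and the deviations of same-numbered C and C + P arrays correlated at 0.172, 0.053 and 0.200, so the numbers were not taken as pairs. In D + P against D 0 passed, 2 with normexp, 12 without a filter on dim probes, 14 with a stricter one, 6 with dim values set to missing, 2 with an intensity trend and 1 with the 7 arrays. The difference between the contrasts passed for 2 probes, for 4 with normexp, 5 without a filter, 6 with a stricter one, 4 with dim values missing, 4 with array weights, 1 with the 7 arrays (another probe than Egr1 and Nr4a1), 0 with the replicate block or the slide column as a block, and 0 to 2 when each array was left out. The median of the immediate early lists was 0.55 with the stricter filter, which tests fewer genes, against 0.41. The other causes were not tested. No result changed direction under any alternative run where it had passed. Dim genes such as Fos and Egr2 are known in C only near background.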
